A study of Mus musculus with 6 samples.

Results

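The endoplasmic reticulum (ER) and heat shock chaperones were examined as a list of 35 gene symbols, 22 of the ER and 13 of the heat shock response, chosen by symbol. The list was drawn up with earlier results of these data known. All 35 had a row in each of 6 RNA-seq tables, out of 17342 named genes. The tissue was subcutaneous fat of the groin (inguinal white adipose tissue, iWAT), taken from C57BL/6 mice aged 8 weeks after cold stimulation. The control group was wild type (WT, libraries 1 to 3), and the other group, Rarres2-/- (libraries 4 to 6), carried a deletion of the gene for chemerin, a protein that fat cells secrete. Both groups had been in the cold, so the comparison is between genotypes and says nothing of what the cold itself did. The labels name no Cre or transgene. They do not give the temperature or length of the cold, the deleted stretch of Rarres2, the sex, or whether a library is 1 mouse or a pool. The p-values therefore measure the spread between libraries, which may be technical.

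Secreted and membrane proteins fold in the ER with the help of chaperones, sugar-binding lectins and enzymes that form disulfide bonds. When unfolded proteins accumulate there, the sensors encoded by Atf6, Ern1 and Eif2ak3 start the unfolded protein response, in which the ATF6 and XBP1 factors switch on the chaperone genes and the genes of ER-associated degradation. Outside the ER the factor HSF1 does the equivalent work for the cytosol, through the Hsp70, Hsp90, Hsp110 and small heat shock proteins and their helpers. The heat shock list as given also holds Hspd1 and Hspe1, whose products form the chaperonin of mitochondria, and Hsf1 itself. White adipocytes make and secrete hormones such as adiponectin and leptin, which fold in the ER.

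Promoters were searched for the ER stress response element (ERSE), the sequence through which ATF6 and XBP1 are known to act. The ER members are of the kinds of gene that these factors switch on. Finding the element in them is therefore a description and no independent support. RefSeq windows on GRCm38.p6, the assembly that mm10 stands for, ran from 250 bases before to 50 bases after each start site and existed for 28 of the 35 members. Hyou1, Manf, Atf6, Hspa8, Hsp90aa1, Hsp90ab1 and Hsf1 had none. Both strands were searched for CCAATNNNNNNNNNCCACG, and 8 of 19 ER members held it, against 0 of 9 heat shock members. Of all 32851 windows of that length, 0.119% held it. The 9 copies follow, each read in the direction of the motif and with the fixed letters in capitals. Hsp90b1 holds a pair of them.
Hspa5: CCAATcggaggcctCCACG
Hsp90b1, first copy: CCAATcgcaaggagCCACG
Hsp90b1, second copy: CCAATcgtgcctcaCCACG
Calr: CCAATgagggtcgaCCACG
Canx: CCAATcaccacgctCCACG
Pdia6: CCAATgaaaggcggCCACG
Dnajc3: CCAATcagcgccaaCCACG
Creld2: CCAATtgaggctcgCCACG
Syvn1: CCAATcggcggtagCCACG

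The Hspa5 window, chr2:34771840-34772139 on the plus strand, shows where such a copy lies. Its ERSE, in capitals, begins 65 bases before the start site.
Hspa5 promoter: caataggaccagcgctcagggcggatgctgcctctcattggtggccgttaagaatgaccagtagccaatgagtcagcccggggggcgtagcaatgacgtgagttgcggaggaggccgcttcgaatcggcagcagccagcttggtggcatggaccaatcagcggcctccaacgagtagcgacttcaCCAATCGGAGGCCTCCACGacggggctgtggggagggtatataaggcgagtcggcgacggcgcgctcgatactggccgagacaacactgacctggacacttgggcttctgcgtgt

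A second element, ATTGGNCCACG, was in the windows of Herpud1 and Dnajb11 and in 0.0365% of all windows. It does not overlap the first in any member window. The heat shock element, searched as GAANNTTCNNGAA or TTCNNGAANNTTC on both strands, was in the windows of Hspd1, Hspe1 and Hsph1, in 0 of 19 ER members and in 0.603% of all windows. Hspd1 and Hspe1 lie head to head on chromosome 1, and the same copies lie in a window of each. For Hspd1 this is chr1:55087883-55088182, the window of an inner start site. The window of its outer start site, chr1:55088194-55088493, holds 0 copies, and from that site the copies lie inside the gene. The Hspe1 window, chr1:55087898-55088197 on the plus strand, is printed below. Its capitals mark a pair of overlapping copies, which begin 89 and 84 bases before the start site.
Hspe1 promoter: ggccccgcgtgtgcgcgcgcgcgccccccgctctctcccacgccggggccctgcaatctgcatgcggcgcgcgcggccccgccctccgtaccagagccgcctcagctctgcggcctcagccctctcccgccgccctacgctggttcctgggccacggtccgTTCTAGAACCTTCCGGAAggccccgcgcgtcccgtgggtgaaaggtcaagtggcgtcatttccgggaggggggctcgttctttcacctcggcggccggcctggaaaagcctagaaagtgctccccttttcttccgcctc
A match is a description of letters in these windows, and a window without one says nothing about the factor.

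The libraries differed in depth and in composition, and the effect of this on the chaperone values was not tested. Values were deposited as FPKM, a read density scaled to transcript length and to the number of mapped fragments, so how many reads lie behind a value is unknown. From the steps between the smallest values, WT replicate 1 had 0.485 times the depth of WT replicate 2, and the other 4 libraries had 0.697 to 1.01 times. In WT replicate 1 a small nucleolar RNA gene held 62.1% of the summed FPKM of named genes. That is a share of summed densities and not of reads. The median over tested genes was 9.05 FPKM in that library and 9.05 to 9.37 FPKM elsewhere. White adipocyte markers (7 of 7 with a row, none at 0) had summed levels of 41716 to 50574 FPKM across WT and of 30005 to 63675 FPKM across Rarres2-/-. Rarres2 itself ran from 436 to 609.6 FPKM across WT and from 0.260 to 6.35 FPKM across Rarres2-/-, in the direction of the labels. The log2 difference of that gene was -7.51 (SE 0.592), and its adjusted p of 0.0597 by limma did not pass the threshold of 0.05 either.

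No chaperone gene passed the test for a difference between the genotypes. In tissue RNA, fewer cells of a type and less RNA per cell cannot be told apart. The test was limma on log2(FPKM + 1) over the 11086 genes whose mean reached 1 FPKM, all 35 chaperones among them, with a Benjamini-Hochberg adjusted p under 0.05 as threshold. It called 0 of the 35 and 0 genes in all (0%), and every chaperone had an adjusted p of 0.999 by limma. At an unadjusted p under 0.05 there was 1 of the 35, Edem1, against 3.93% of all tested genes (2.2% higher and 1.73% lower in Rarres2-/-).

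The log2 difference, Rarres2-/- minus WT, was positive for 16 of the 22 ER members and 9 of the 13 heat shock members, where 48.6% of all tested genes had a positive difference. The median log2 difference was 0.09 for the ER members and 0.08 for the heat shock members, against -0.01 for all tested genes. These differences are small: the median absolute log2 difference was 0.12 for the ER and 0.09 for the heat shock members, and 0.14 for all tested genes. The count of 25 higher and 10 lower members turned to 19 higher and 16 lower without WT replicate 1. The ER median was then 0.01, and it was -0.0084 with array weights and -0.020 without WT replicate 1 and Rarres2-/- replicate 4. The heat shock median was 0.25 without Rarres2-/- replicate 4.

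**Figure D1:**
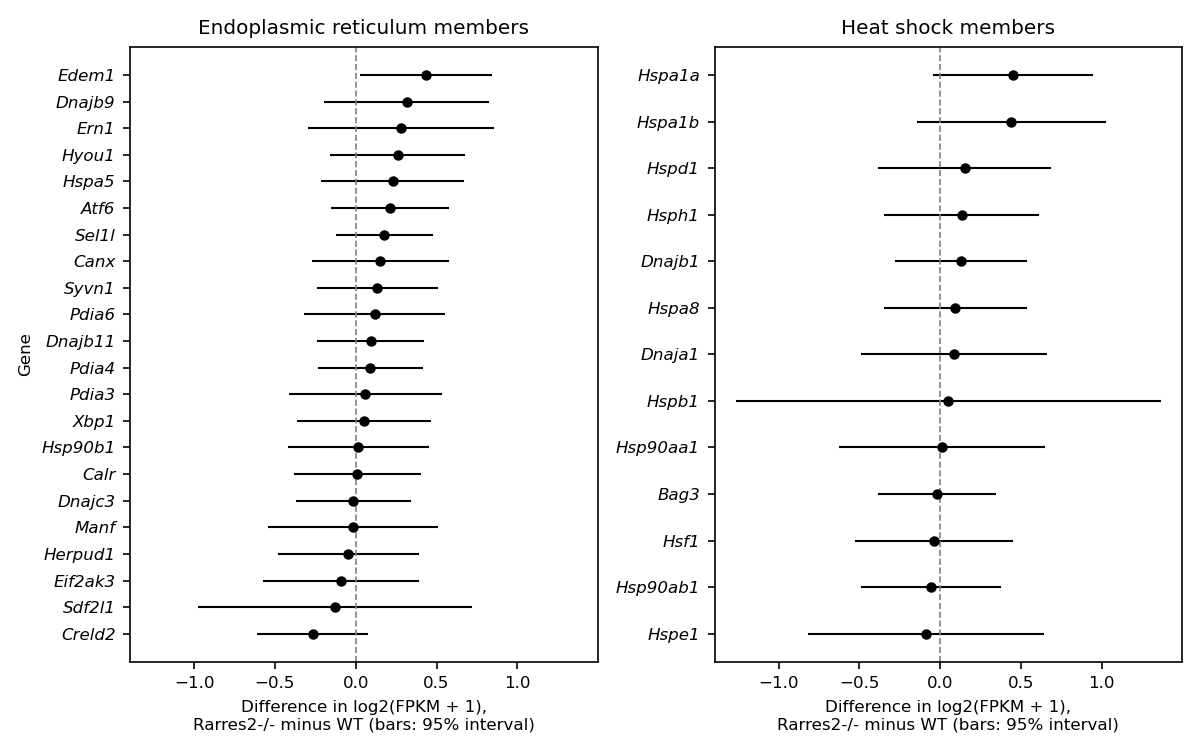
Difference in log2(FPKM + 1) between Rarres2-/- and WT (x axis) for each chaperone gene (y axis), ER members left and heat shock members right. Points are limma estimates, bars their 95% intervals, n = 3 libraries per genotype; the interval of Edem1 (0.02 to 0.84) lies above 0 and those of the other genes hold 0.

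The genotypes did not overlap in 2 of the 35 chaperones, both higher in Rarres2-/- and both in ER-associated degradation. That is 5.71% of the members, where the groups were apart in 10.3% of all tested genes (5.81% higher and 4.53% lower). Edem1 (chromosome 6, 108824045 to 108859356, RefSeq on GRCm38.p6) encodes a lectin-like protein that takes misfolded glycoproteins out of the folding cycle. It was at 12.2, 16.8 and 17.8 FPKM in the 3 WT libraries and 22.5, 20.5 and 20.5 FPKM in the 3 of Rarres2-/-. Every Rarres2-/- library lay above every WT library, and WT replicate 1 was the lowest. The means were 15.6 ± 2.97 and 21.2 ± 1.12 FPKM (SD, n = 3 each), and their log2 difference was 0.43 (SE 0.172), which was 0.28 without WT replicate 1. By limma its unadjusted p was 0.0406 and its adjusted p 0.999, and the adjusted p was 0.0663 with array weights. Sel1l (chromosome 12, 91806043 to 91849157) encodes the scaffold of the ubiquitin ligase complex in the ER membrane, and was at 16.1, 16.3 and 15.8 FPKM in the WT libraries against 18.9, 19.1 and 16.9 FPKM in those of Rarres2-/-. The gap between the groups was narrow, and the log2 difference was 0.18 (SE 0.126). The exact two-sided permutation p over libraries was 0.1 for Edem1 and for Sel1l, the smallest that 3 against 3 libraries allow.

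The other members of ER-associated degradation overlapped between genotypes. Syvn1, the ubiquitin ligase, was at 15.1 to 21.0 FPKM over the 6 libraries and the log2 difference was 0.13. Herpud1, a membrane partner of that complex and a known target of the unfolded protein response, was at 37.1 to 51.1 FPKM and the log2 difference was -0.05. Among 17 tested genes of a wider list of ER-associated degradation, 14 had a positive and 3 a negative difference, with a median of 0.11 and 0 past the threshold. Nploc4, a cofactor of the extracting ATPase, had the smallest p of that list, at 15.9, 18.2 and 16.9 FPKM in the 3 WT libraries and 18.6, 22.9 and 19.3 FPKM in the 3 of Rarres2-/-. Its difference of 0.24 was 0.15 without Rarres2-/- replicate 5.

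**Figure D2:**
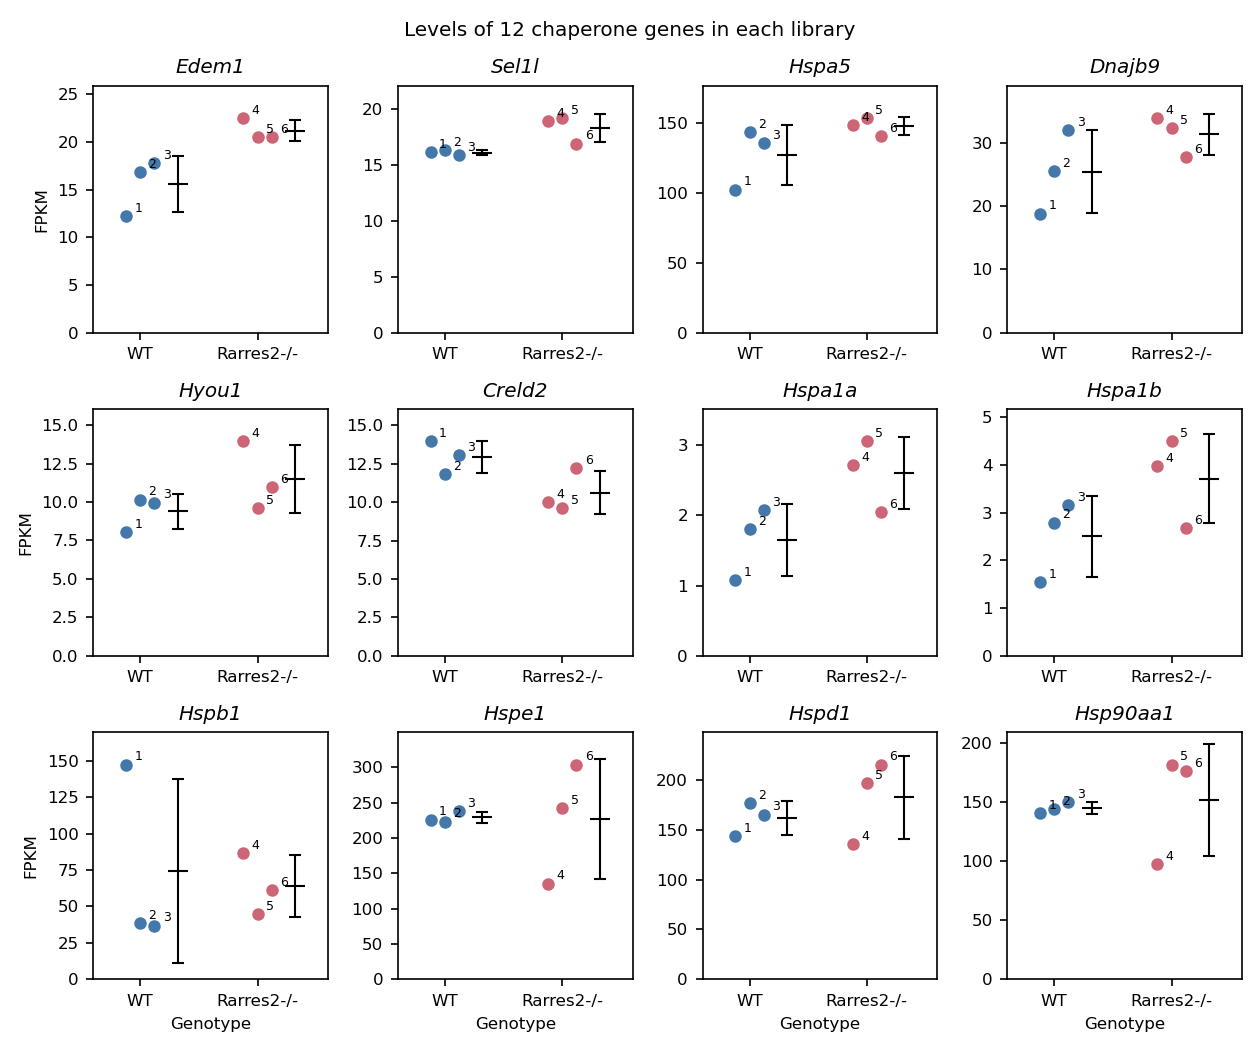
FPKM (y axis, from 0) of 12 chaperone genes in each library (points, labelled with the library number), with the mean and SD of each genotype (n = 3) beside them. The groups are apart for Edem1 and Sel1l; Hspb1 is highest in WT replicate 1 (147 FPKM), and Hspe1 (135 FPKM) and Hsp90aa1 (97.3 FPKM) are lowest in Rarres2-/- replicate 4.

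The sensors of ER stress were the lowest of the ER members, and none was apart between genotypes. Ern1, which encodes the IRE1 kinase and nuclease that splices Xbp1 RNA, was at 0.570, 1.04 and 1.09 FPKM in the WT libraries against 1.82, 1.46 and 0.728 FPKM in those of Rarres2-/-. A pair of Rarres2-/- libraries lay above all of WT and the remaining library lay inside the WT range. Atf6, which encodes the membrane-bound factor, was at 4.84, 5.80 and 6.33 FPKM in the 3 WT libraries and 7.33, 7.02 and 5.75 FPKM in the 3 of Rarres2-/-, with the same Rarres2-/- library, replicate 6, inside the WT range. Eif2ak3, which encodes the kinase PERK, was at 2.68, 4.03 and 4.10 FPKM in the WT libraries against 4.24, 2.93 and 2.80 FPKM in those of Rarres2-/-. Here the groups were interleaved. The log2 differences were 0.28 (SE 0.242), 0.21 (SE 0.154) and -0.09 (SE 0.203), in that order. Without WT replicate 1 they were 0.15, 0.12 and -0.25. That of Ern1 was 0.13 without Rarres2-/- replicate 4 and 0.48 without replicate 6, and that of Eif2ak3 ran from -0.25 to -0.0059 with 1 library left out. Xbp1, the factor downstream of IRE1, was far more abundant, at 105, 136 and 115 FPKM in the 3 WT libraries and 131, 111 and 126 FPKM in the 3 of Rarres2-/-. Its groups overlapped over nearly their whole range, and FPKM per gene does not separate its spliced from its unspliced form.

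Hspa5 encodes BiP, the Hsp70 of the ER and the usual readout of the unfolded protein response. It was at 102, 143 and 135 FPKM in the WT libraries against 148, 153 and 141 FPKM in those of Rarres2-/-. The groups met at their edges, WT replicate 2 lying above Rarres2-/- replicate 6, and WT replicate 1 was far below the rest. The means were 127 ± 21.7 and 148 ± 6.37 FPKM (SD, n = 3 each), and their log2 difference was 0.23 with a 95% interval of -0.21 to 0.67. Without WT replicate 1 or under any other alternative it kept its sign, with a range of 0.08 to 0.32.

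The partners of BiP varied more. Dnajb9, an ER co-chaperone of the J-protein family, was at 18.8, 25.5 and 32 FPKM in the 3 WT libraries and 33.9, 32.3 and 27.7 FPKM in the 3 of Rarres2-/-, which is a difference of 0.32 in log2 (SE 0.215). Hyou1, the large Hsp70-like protein that exchanges the nucleotide of BiP, was at 8.07, 10.2 and 9.96 FPKM in the WT libraries against 13.9, 9.62 and 11.0 FPKM in those of Rarres2-/-, a difference of 0.26 (SE 0.175). In both genes WT replicate 1 was lowest and Rarres2-/- replicate 4 highest. The Dnajb9 difference was 0.12 without WT replicate 1 and 0.49 without WT replicate 3, and that of Hyou1 was 0.12 without Rarres2-/- replicate 4 and 0.16 without WT replicate 1. Creld2, an ER protein with disulfide exchange activity and the member with the most negative difference, was at 13.95, 11.9 and 13.1 FPKM in the 3 WT libraries and 10.02, 9.64 and 12.2 FPKM in the 3 of Rarres2-/-. Its log2 difference was -0.27 (SE 0.145), and Rarres2-/- replicate 6 lay inside the WT range. Sdf2l1, a partner of the J-protein encoded by Dnajb11, had the widest fold range of the ER members after Ern1 and ran from 4.44 FPKM in WT replicate 1 to 13.2 FPKM in WT replicate 3.
The remaining partners had smaller differences. Dnajb11 (25.7 to 30.7 FPKM), Dnajc3 (26.0 to 32.1 FPKM), the secreted ER factor gene Manf (15.7 to 24.1 FPKM) and Hsp90b1, which encodes the Hsp90 of the ER (132 to 173 FPKM), had log2 differences of 0.09, -0.02, -0.02 and 0.01.

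The lectin chaperones and disulfide isomerases overlapped between genotypes throughout. Calr, which encodes the soluble lectin calreticulin, was at 174 to 210.3 FPKM and Canx, its membrane-bound counterpart calnexin, at 52.0 to 76.0 FPKM. The isomerase genes Pdia3, Pdia4 and Pdia6 were at 83.2 to 126, 32.7 to 38.8 and 57.6 to 81.7 FPKM. All 5 had positive log2 differences, between 0.01 (Calr) and 0.15 (Canx). In Pdia4 the spread within Rarres2-/- was 1.78% of the mean (coefficient of variation, n = 3), the smallest of the 35 chaperones there. Of 30 tested genes of a wider list of ER folding and translocation, 17 had a positive and 13 a negative difference, with a median of 0.03. Ero1l, the oxidase that recharges the isomerases, had the smallest p among them, with 4.81, 6.97 and 6.15 FPKM in the WT libraries against 7.65, 8.01 and 7.24 FPKM in those of Rarres2-/-, and its groups did not overlap. Its difference of 0.32 was 0.19 without WT replicate 1. The groups were apart in 1 of these 30 genes (3.33%), against 10.3% of all tested genes. Cdnf, a relative of Manf, was next, with a difference of 0.29 that was 0.07 without Rarres2-/- replicate 5 and 0.47 without replicate 4.

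Members with and without an ERSE had close median differences between genotypes but unlike ranges. The sets were not tested against each other. The 8 genes with the element had 6 positive and 2 negative differences, from -0.27 (Creld2) to 0.23 (Hspa5), with a median of 0.07. The 9 ER members whose windows held neither ER element had 7 positive and 2 negative differences with a median of 0.09. They ran from -0.13 (Sdf2l1) to 0.43 (Edem1), and Sel1l was among them. The Edem1 window, chr6:108828391-108828690, lies inside the gene, so the bases before its outer annotated start were not searched.

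Of the heat shock members, the stress-inducible Hsp70 genes had the largest differences and the lowest levels. Hspa1a (chromosome 17, 34969359 to 34972156) was at 1.08, 1.81 and 2.07 FPKM in the 3 WT libraries and 2.71, 3.05 and 2.05 FPKM in the 3 of Rarres2-/-, which is a difference of 0.45 in log2 (SE 0.208). Hspa1b (chromosome 17, 34956429 to 34959238) was at 1.55, 2.79 and 3.17 FPKM in the WT libraries against 3.97, 4.49 and 2.68 FPKM in those of Rarres2-/-, a difference of 0.44 (SE 0.247). In both, replicates 4 and 5 lay above all of WT and replicate 6 inside the WT range. Without WT replicate 1 the differences were 0.29 and 0.23. The 2 genes are near-identical copies and cannot be read as separate measurements. Of the 50-base stretches of the longest GENCODE M21 Hspa1a transcript, 58.8% also occur in Hspa1b, how shared reads were assigned is unknown here, and the ratio of Hspa1b to Hspa1a stayed between 1.31 and 1.55 in all 6 libraries. On the log2(FPKM + 1) scale a change at such low levels is understated.

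Hsf1, the regulator, was at 8.67, 7.49 and 6.04 FPKM in the 3 WT libraries and 9.25, 5.66 and 6.81 FPKM in the 3 of Rarres2-/-, with overlapping groups and a log2 difference of -0.04. The constitutive Hsp70 gene Hspa8 was the most abundant of all 35, at 454, 482 and 485 FPKM in the WT libraries against 467, 579.7 and 476 FPKM in those of Rarres2-/-. Its high library was Rarres2-/- replicate 5, without which its difference of 0.09 was -0.0051. Hsph1, the Hsp110 that recharges Hsp70, was at 7.53, 9.96 and 10.6 FPKM in the 3 WT libraries and 8.26, 12.9 and 10.1 FPKM in the 3 of Rarres2-/-. The J-protein gene Dnaja1 was at 39.2, 52.3 and 44.9 FPKM in the WT libraries against 35.0, 63.0 and 49.8 FPKM in those of Rarres2-/-. In Hsph1 and Dnaja1 the highest library was again replicate 5, and without it their differences of 0.13 and 0.08 were -0.02 and -0.11. Dnajb1, a J-protein gene that HSF1 induces, was at 18.7, 21.3 and 16.9 FPKM in the 3 WT libraries and 17.4, 24.2 and 21.3 FPKM in the 3 of Rarres2-/-, with the same library highest and a difference of 0.13 (SE 0.172), which was 0.02 without that library. Bag3, a co-chaperone that links Hsp70 to autophagy, had a difference of -0.02 and ran from 22.8 to 28.8 FPKM.

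The Hsp90 genes of the cytosol differed in spread. Hsp90ab1, the constitutive form, was at 433, 367 and 405 FPKM in the WT libraries against 359, 374 and 425 FPKM in those of Rarres2-/-, and the log2 difference was -0.06. Hsp90aa1, the inducible form, was at 141, 144 and 150.2 FPKM in the 3 WT libraries and 97.3, 182 and 176 FPKM in the 3 of Rarres2-/-. The WT libraries lay within 10 FPKM of each other and all 3 Rarres2-/- libraries outside them, replicate 4 below and the others above. Its coefficient of variation was 3.26% in WT and 31.1% in Rarres2-/-. The median coefficient over all tested genes was 15.8% in WT and 18.9% in Rarres2-/-. Over the heat shock members it was 11.6% in WT and 22.8% in Rarres2-/-. Without replicate 4 the Hsp90aa1 difference of 0.01 was 0.30 and without replicate 5 it was -0.15. Hsp90aa1, Hspe1 and Hspb1 are given library by library because of their spread, a choice made after their values were seen.

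Hspd1 and Hspe1, the mitochondrial chaperonin pair whose heat shock element is shown above, followed the same order in Rarres2-/-. Hspe1 (chromosome 1, 55088148 to 55091317) was at 226, 223 and 238 FPKM in the WT libraries against 135, 242 and 304 FPKM in those of Rarres2-/-. Hspd1 (chromosome 1, 55077833 to 55088243) was at 144, 177 and 165 FPKM in the 3 WT libraries and 136, 197 and 216 FPKM in the 3 of Rarres2-/-. Replicate 4 was the lowest and replicate 6 the highest of all 6 libraries in both genes, and the WT libraries lay between. Hsp90b1 and Dnajb11 also had these lowest and highest libraries, and Pdia4 and Hsp90ab1 had the same order within Rarres2-/-. The order is thus not particular to the pair, whose WT libraries were ordered differently. How many of all tested genes have it was not counted. The coefficient of variation of Hspe1 was 3.41% in WT and 37.5% in Rarres2-/-. The log2 differences were -0.09 (SE 0.306) for Hspe1 and 0.15 (SE 0.225) for Hspd1, and without replicate 4 they were 0.24 and 0.35. White adipocyte markers were also lowest in replicate 4, at 30005 FPKM, and highest in replicate 6, at 63675 FPKM. Their part in the result was not tested. The annotated starts of the pair overlap, and since it is not stated that reads were counted by strand, reads there cannot be told apart.

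Hspb1, a small heat shock protein gene, had the widest fold range of all 35. It was at 147, 38.7 and 36.7 FPKM in the WT libraries against 86.3, 44.6 and 60.9 FPKM in those of Rarres2-/-. WT replicate 1 was the highest library and Rarres2-/- replicate 4 the next. Endothelial markers (5 of 5 with a row, none at 0) stood out in the same libraries, with sums of 223 FPKM in WT replicate 1 and 138 FPKM in Rarres2-/- replicate 4 against 25.9 to 33.0 FPKM in the other 4. Their part in the result was not tested. The direction of Hspb1 depended on the scale, since its FPKM mean was 74.3 ± 63.4 in WT and 64.0 ± 21.0 in Rarres2-/- (SD, n = 3 each). The log2 difference was 0.05 (SE 0.553), and it was 0.70 without WT replicate 1 and -0.19 without Rarres2-/- replicate 4.

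Set side by side by library, the ER and the heat shock members had different lowest and highest libraries, a difference that was not tested. WT replicate 1 was the lowest library for 15 of the 22 ER members and for 4 of the 13 heat shock members, where it was lowest in 28.9% of all tested genes. Rarres2-/- replicate 5 was the highest library for 7 of the 13 heat shock members and for 3 of the 22 ER members, against 16.3% of all tested genes. Rarres2-/- replicate 4 was the highest for 9 ER members and 1 heat shock member, against 18.2% of all tested genes, and the lowest for 2 ER members and 5 heat shock members, against 28.5%. The median deviation from the 6-library mean on the log2 scale was -0.27 for the ER and -0.08 for the heat shock members in WT replicate 1. It was 0.12 and -0.13 in Rarres2-/- replicate 4, and it was 0.06 and 0.24 in Rarres2-/- replicate 5. In WT replicate 2, WT replicate 3 and Rarres2-/- replicate 6 both medians lay within 0.05 of 0. The difference between the class medians of the genotype contrast was 0.01, ER minus heat shock, and the classes cannot be ordered by it: it was -0.23 without WT replicate 1 and Rarres2-/- replicate 4.

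**Figure D3:**
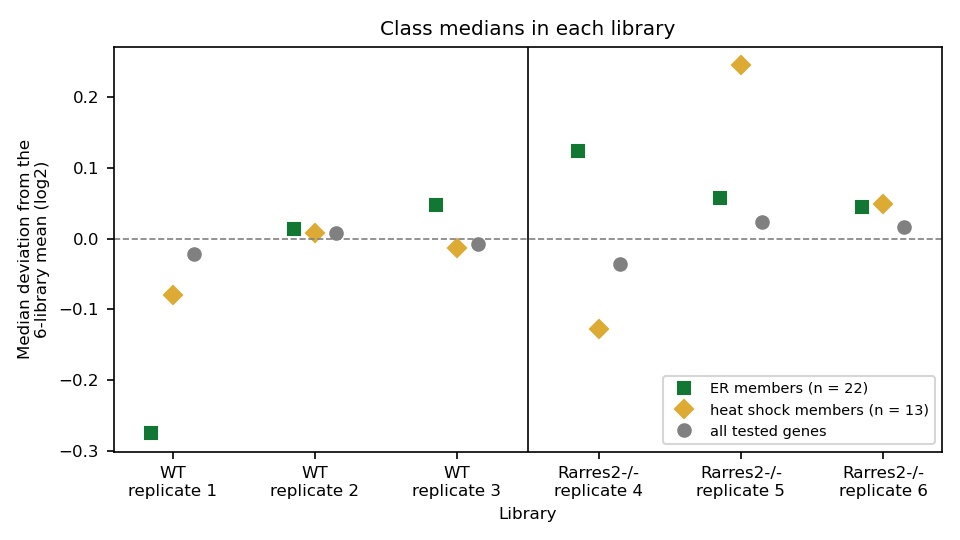
Median deviation from the 6-library mean on the log2(FPKM + 1) scale (y axis) of the 22 ER members (squares), the 13 heat shock members (diamonds) and all 11086 tested genes (circles) in each library (x axis). The ER median is lowest in WT replicate 1 (-0.27) and the heat shock median highest in Rarres2-/- replicate 5 (0.24).

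**Figure D4:**
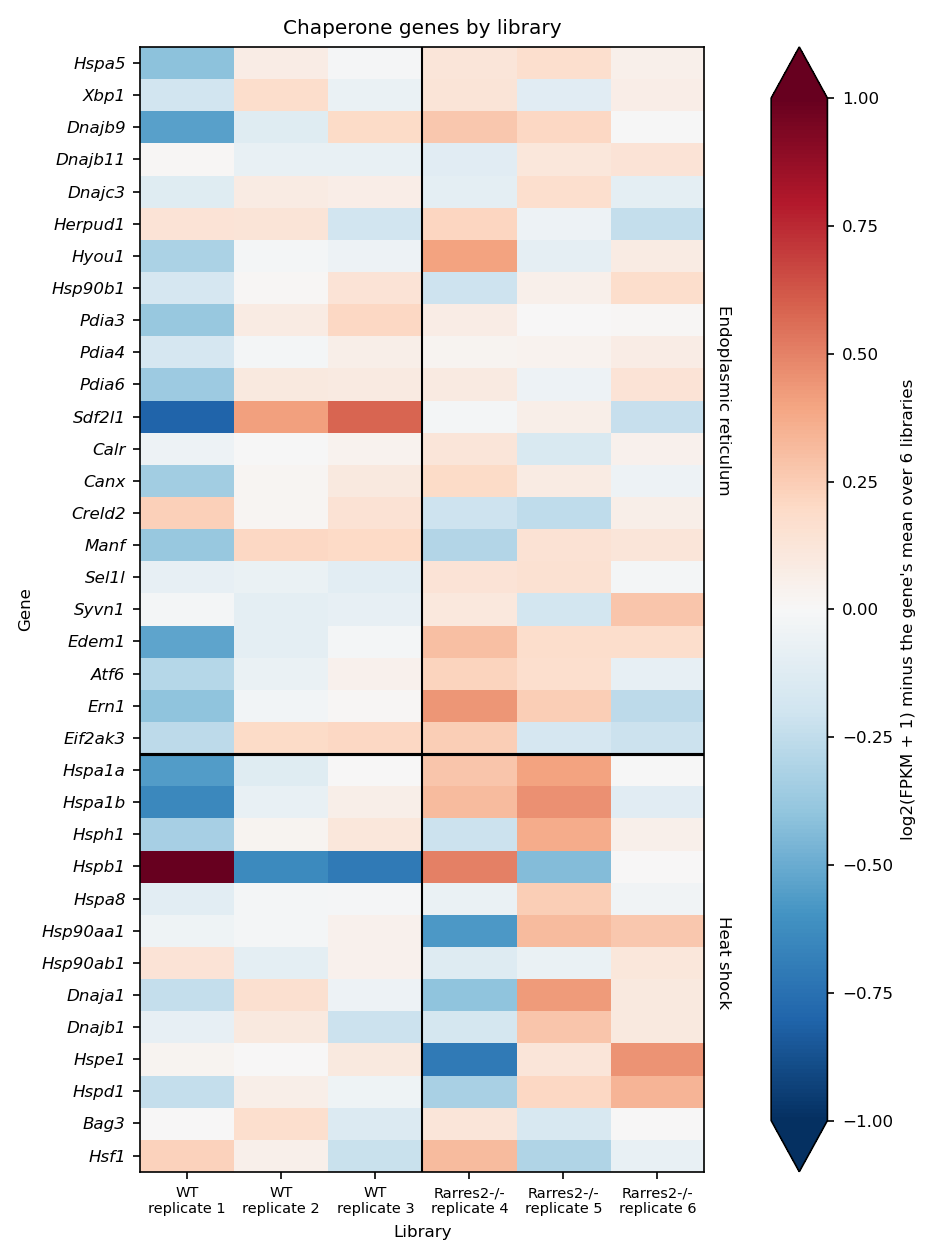
Deviation of each chaperone gene (rows, ER above and heat shock below the black line) from its mean over 6 libraries on the log2(FPKM + 1) scale (colour, clipped at 1) in each library (columns, WT left of the vertical line). WT replicate 1 is blue for most ER members, and Hspb1 is the reddest cell there.

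Markers of other cell types also stood apart in WT replicate 1. Macrophage markers (8 of 9 with a row) summed to 400.5 FPKM there against 793 to 1735 FPKM in the other libraries, mast cell markers to 8.02 against 71.6 to 151 FPKM, and progenitor and fibroblast markers to 1306 against 2322 to 5805 FPKM. Plasma and B cell markers (9 of 11 with a row), which mark cells rich in ER, summed to 8.13 FPKM there and 14.2 to 36.2 FPKM elsewhere. Skeletal muscle markers summed to 1193 FPKM there and 139 to 412 FPKM elsewhere. No marker of these lists was at 0 in all 6 libraries. The part of these cells in the low ER values of that library was not tested.

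Leaving out libraries left more members without overlap, though a smaller share of them than of all tested genes. Without WT replicate 1 the groups did not overlap in 6 of 35 chaperones, against 25.3% of all tested genes. Without Rarres2-/- replicate 4 the count was also 6, against 34.4%, and without both it was 11, against 58.1%. In the last case Dnajb11, Sel1l, Edem1, Hspb1, Hsp90aa1, Hspe1 and Hspd1 were higher and Pdia3, Sdf2l1, Manf and Eif2ak3 lower in Rarres2-/-. By limma on those 4 libraries 0 chaperones passed, against 0.613% of all tested genes. Array weights, with which limma called 13.7% of all tested genes, called 2 of the 35, Eif2ak3 (lower, adjusted p = 0.0474) and Hspa1a (higher, adjusted p = 0.0477). These settings were chosen with the libraries' behaviour known.

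Levels spanned a wide range within each class. Per kilobase of transcript, the mean over 6 libraries was highest for Hspa8 at 491 FPKM and Hsp90ab1 at 394 FPKM, which overlapped neither each other nor the next, followed by Hspe1 at 228, Calr at 193, Hspd1 at 172, Hsp90b1 at 154, Hsp90aa1 at 148, Hspa5 at 137 and Xbp1 at 121 FPKM. From Hspe1 down to Xbp1 each gene overlapped its neighbour in this order over the 6 libraries. Ern1 at 1.12 and Hspa1a at 2.13 FPKM were the lowest. The levels of several heat shock genes are uncertain, since pseudogenes share their sequence. Other genes share 74.8% of the 50-base stretches of the Hspa8 transcript, 58.5% of Hsp90aa1, 51.6% of Hspb1, 44.8% of Hspe1 and 44.8% of Hspd1. Among the ER members the largest share was 13.8%, for Hsp90b1.

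Stress genes outside the list included larger differences, with 0 past the threshold in the main test. With array weights, which called 13.7% of all tested genes, Chac1, Cebpb, Cryab, Cdnf and Nploc4 passed, with adjusted p-values by limma of 0.0196, 0.0323, 0.0372, 0.0381 and 0.0413. In the integrated stress response, which PERK is not alone in starting, 6 of 12 genes had a positive and 6 a negative difference. An unadjusted p under 0.05 by limma was reached by 4 of the 12, against 3.93% of all tested genes, and the groups did not overlap in 3 of the 12, against 10.3%. This list was chosen with earlier results of these data known, so these counts are a description and no support. Chac1, which degrades glutathione and is induced by ATF4, was at 2.84, 3.39 and 1.96 FPKM in the 3 WT libraries and 18.0, 7.09 and 6.35 FPKM in the 3 of Rarres2-/-, which is a difference of 1.5 in log2 (SE 0.376). Cebpb, a transcription factor of adipocytes and of stress, was at 151, 117 and 134 FPKM in the WT libraries against 233, 191 and 317 FPKM in those of Rarres2-/-, a difference of 0.86 (SE 0.235). In both genes every Rarres2-/- library lay above every WT library, and both had an adjusted p of 0.999 by limma. Other regulators of the unfolded protein response split evenly, with 6 positive and 6 negative differences among 12. Creb3l2, a membrane-bound relative of ATF6, had one of 0.39 with overlapping libraries, which was 0.18 without Rarres2-/- replicate 4. Traf2, an adaptor of IRE1, had one of -0.18 with every Rarres2-/- library below WT, which was -0.09 without WT replicate 1. The groups were apart in 1 of these 12 regulators (8.33%), against 10.3% of all tested genes.

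Of 33 tested further cytosolic heat shock proteins and co-chaperones, 21 had a positive and 12 a negative difference (median 0.09). The small heat shock protein gene Cryab was at 60.0, 57.5 and 53.4 FPKM in the 3 WT libraries and 63.3, 91.0 and 178 FPKM in the 3 of Rarres2-/-, and the J-protein gene Dnajb4 at 17.4, 24.7 and 19.8 FPKM in the WT libraries against 29.5, 30.5 and 24.8 FPKM in those of Rarres2-/-. Neither overlapped between genotypes, and neither passed the main test, with an adjusted p of 0.999 by limma for both. The groups were apart in 3 of these 33 genes (9.09%), 2 higher and 1 lower, against 10.3% of all tested genes. The Cryab difference of 0.82 was 0.41 without Rarres2-/- replicate 6. The TRiC/CCT chaperonin, which folds actin and tubulin, had 8 of 8 positive differences with a median of 0.16, with Cct6a at 0.33 and Cct3 at 0.19, all overlapping. The median deviation of these 8 genes was -0.28 in WT replicate 1, without which Cct6a was at 0.11, and Cct3 was at 0.31 without Rarres2-/- replicate 4 and 0.12 without replicate 6. Mitochondrial chaperones and proteases had 9 of 11 positive differences with a median of 0.11, among them Dnaja3 (0.21, and 0.34 without Rarres2-/- replicate 4) and Yme1l1 (0.21, and 0.09 without WT replicate 1). Of 3 cold-inducible RNA-binding protein genes, 1 had a positive and 2 a negative difference, with Cirbp at -0.13 and Rbm3 at 0.22. Without WT replicate 1 they were at -0.03 and 0.06. Rbm3 was lowest in Rarres2-/- replicate 4, at 154 FPKM, and highest in replicate 5, at 363 FPKM, so that the groups overlapped.

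The genes whose pattern over the 6 libraries was most like that of Hspa5 were, among 11051 tested genes outside the list, Cdc73, Bmpr1a, Gla, Kdm5c and Cd164. Their Pearson r with Hspa5 ran from 0.995 to 0.997, a description over 6 libraries that share 1 low library, and 144 genes exceeded 0.95. All 5 were lowest in WT replicate 1 and highest in Rarres2-/- replicate 5, as Hspa5 was.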

How the data were processed

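Total RNA of 6 libraries, 3 per genotype, was sequenced on an Illumina instrument. The authors deposited a table of FPKM for each library, as named in the headers of 5 tables. The header of WT replicate 3 gives only a sample name, and its values were read as FPKM because its rows and scale match. Bowtie and mm10 are named in the submitters' processing notes, and the program that computed FPKM, the annotation, strand handling and versions are unknown here. Rows without a symbol (737, 0.793% to 4.91% of the summed values) were left out. Depth relative to WT replicate 2 was read from ratios of values under 0.15 FPKM.

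The 11086 genes whose mean reached 1 FPKM were tested on log2(FPKM + 1) with limma 3.58.1 under R 4.3.3. Genotype was the only term, the test was two-sided with a mean-variance trend, and p-values were adjusted over all of these genes. The script was tested on simulated data. The genotypes have no replicate number in common, so there was no block. The members and lists were chosen with earlier results of these data known, and counts and medians over a list are descriptions. Values in every library are given for Hspa5, Xbp1, the sensors, Hsf1 and the 8 members of each class with the smallest p, and from each of 8 companion lists the 2 genes with the smallest p are named, except for 1 that is not reported here. Of the companion genes, 6 symbols had no row, as older symbols were in use for some. Alternatives were other scalings, filters, pseudocounts and weights, and libraries left out.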

Additional observations from a re-analysis of the deposited data

How the results depend on the processing

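Of the 35 chaperones, 13 kept the sign of their difference in each of the 15 alternatives that gave them a value (Hspa5, Dnajb9, Dnajb11, Pdia4, Creld2, Sel1l, Edem1, Atf6, Eif2ak3, Hspa1a, Hspa1b, Dnajb1 and Hspd1), and 17 changed it with 1 library left out. The changes of filter and the fit without a trend leave a log2 difference as it was, so they could not have changed a sign. Eif2ak3, Ern1, Hspa1a and Hspa1b did not pass the filter of 5 FPKM and have no value there. The cause of these changes was not tested. FPKM gives no counts, so depth limits the lowest genes (Ern1, Hspa1a, Hspa1b) by an unknown amount. No paired analysis was possible because the genotypes share no replicate numbers.

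Genes past the threshold, 0 in the main test, numbered 1 with a filter of 5 FPKM in 3 libraries, 1 with upper-quartile scaling, 1 with scaling without the 20 most abundant genes, 0 to 1 with 1 library left out, 68 without WT replicate 1 and Rarres2-/- replicate 4, and 1524 with array weights, whose estimation stopped short of its convergence tolerance. Chaperones past it were 2 with array weights and 0 in the other alternatives. Members with groups apart, 2 in all, were 6 without WT replicate 1, 6 without Rarres2-/- replicate 4 and 11 without both, an alternative chosen after seeing the data. The heat shock median ran from 0.024 to 0.25 with 1 library left out and was 0.23 with array weights. The ER median, 0.09 in the main test, was -0.0084 with array weights, -0.020 without that pair of libraries and 0.014 to 0.14 with 1 library left out. The ER minus heat shock difference was -0.24 with array weights and -0.23 without that pair of libraries.

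With array weights the log2 differences that changed sign were -0.15 (Xbp1), 0.067 (Dnajc3), -0.019 (Hyou1), -0.12 (Pdia3), -0.10 (Pdia6), -0.14 (Calr), -0.040 (Syvn1), 0.089 (Hspe1) and 0.074 (Cirbp). Without the pair of libraries they were -0.079 (Xbp1), -0.14 (Pdia3), -0.048 (Pdia6), -0.072 (Calr), -0.043 (Canx), -0.0029 (Ern1), 0.049 (Hsp90ab1), 0.23 (Hspe1) and 0.011 (Cirbp). Quantile normalization gave -0.033 (Hsp90b1), -0.035 (Calr) and -0.066 (Hsp90aa1), and upper-quartile scaling -0.00027 (Calr). With 1 library left out the ranges were -0.030 to 0.16 (Xbp1), -0.10 to 0.030 (Dnajc3), -0.16 to 0.060 (Herpud1), -0.070 to 0.12 (Hsp90b1), -0.12 to 0.18 (Pdia3), -0.033 to 0.20 (Pdia6), -0.56 to 0.13 (Sdf2l1), -0.049 to 0.088 (Calr), -0.21 to 0.12 (Manf), -0.018 to 0.27 (Hsph1), -0.29 to 0.70 (Hspb1), -0.0051 to 0.15 (Hspa8), -0.15 to 0.30 (Hsp90aa1), -0.11 to 0.30 (Dnaja1), -0.34 to 0.24 (Hspe1), -0.095 to 0.058 (Bag3), -0.21 to 0.10 (Hsf1) and -0.017 to 0.60 (Rbm3).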
